A study of Mus musculus with 8 samples.

Results

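The data on the insulin-like growth factor (IGF) axis of mouse thymic epithelial cells (TECs) concern 10 genes: the ligands *Igf1* and *Igf2*, the receptors *Igf1r* and *Igf2r*, and the binding proteins *Igfbp2* to *Igfbp7*. These are 10 of the 56923 genes counted in each library, chosen by name and matched through their Ensembl identifiers. *Igfbp4* and *Igfbp5* were picked for their rise in organoids, so their organoid values are given as a description and carry no test. The other 8 genes were not picked for such a rise, but all members were chosen with earlier results of these data known. Of these 8 genes, 6 could be tested.

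Bulk 3′ RNA sequencing covered 4 groups of TECs with 2 libraries each, labelled as biological replicates, all wild type (C57BL/6J) and labelled as receiving no treatment. *In vivo* TECs were EpCAM+ cells sorted from E16.5 thymi and lysed at once. 2D-cultured TECs were the same sorted cells grown on laminin until they formed a confluent monolayer at 3 days, and organoids were grown in growth factor-reduced Matrigel and collected at day 3 (D3) or day 7 (D7). All cultures had the same serum-free medium with B-27, N2, N-acetylcysteine and FGF7. Organoids received the kinase inhibitor thiazovivin for the first 2 days, and the paper does not state whether 2D-cultured TECs did. Sorted cells were collected in this medium with thiazovivin and fetal bovine serum. The sources used here do not state how many embryos went into a library, so what a replicate stands for is not known. Each p-value sets a difference against a spread between libraries that was estimated over all 4 groups.

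Total counts ran from 5084715 to 7612532 per library. Levels are CPM (counts divided by the library total and multiplied to a common scale) after TMM scaling. At most 3 counts, which is between 0.372 and 0.593 CPM depending on the library, count here as the floor. The epithelial label was checked first. *Epcam* stood at 198 ± 9.50 CPM (SD, n = 2) *in vivo*, 769 ± 63.3 in 2D, 582.4 ± 17.2 in D3 organoids and 442 ± 0.292 in D7 organoids. *Psmb11*, a thymoproteasome subunit gene that marks cortical TECs, stood at 539.6 ± 23.2 CPM *in vivo* and 109.6 ± 4.43 in D7 organoids, and at 0.551 ± 0.00801 in 2D and 0.743 ± 0.333 in D3 organoids. A list of 10 TEC genes with both summed to 6926 and 7349 CPM *in vivo* and 8644 and 7965 in 2D. The sum was 1892 and 1734 CPM in D3 and 2192 and 2300 in D7 organoids. Within it, mean *Krt18* fell from 1747 CPM *in vivo* to 259 in D3 and 490 in D7 organoids, and *Krt8* fell too. *Cdh1* was not lower in organoids, at a mean of 437 CPM *in vivo*, 514 in D3 and 539 in D7 organoids. A list of 10 thymocyte genes summed to 934 and 423 CPM in the *in vivo* libraries and to between 4.22 and 14.1 CPM in the 6 cultured ones.

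IGF1 and IGF2 are secreted growth factors that signal through the receptor tyrosine kinase IGF1R, while IGF2R binds IGF2 and carries it to lysosomes. IGF binding proteins (IGFBPs) hold the ligands outside the cell, and proteases such as PAPP-A release them by cutting the binding protein. Inside the cell the receptor acts through insulin receptor substrates, PI3K and AKT, which keep FOXO transcription factors out of the nucleus. The B-27 and N2 supplements contain insulin, which also activates this pathway.

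The promoters of the pair picked for their rise in organoids are shown because these 2 genes carry most of the IGFBP counts in organoids. Each is 300 bases of the RefSeq promoter table (GRCm38.p6), 250 before the start site and 50 after it, and matched a single place on its chromosome in GRCm39, chr11:98931820-98932119 on the plus strand for *Igfbp4* and chr1:72913975-72914274 on the minus strand for *Igfbp5*. Capitals mark the TATA motif TATAAA.
Igfbp4: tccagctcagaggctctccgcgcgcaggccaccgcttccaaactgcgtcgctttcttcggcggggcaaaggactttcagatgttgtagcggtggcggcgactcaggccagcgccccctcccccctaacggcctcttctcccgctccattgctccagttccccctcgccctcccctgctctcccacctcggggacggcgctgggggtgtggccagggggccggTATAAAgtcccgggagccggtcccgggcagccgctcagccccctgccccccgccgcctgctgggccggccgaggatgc
Igfbp5: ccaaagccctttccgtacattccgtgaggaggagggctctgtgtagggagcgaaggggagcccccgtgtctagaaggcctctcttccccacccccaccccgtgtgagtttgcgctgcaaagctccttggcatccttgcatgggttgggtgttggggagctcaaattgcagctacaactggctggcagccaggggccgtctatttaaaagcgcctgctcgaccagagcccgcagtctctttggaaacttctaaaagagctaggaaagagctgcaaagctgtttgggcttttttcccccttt
The 3 motifs below were searched on both strands: TATAAA, the FOXO motif GTAAACA and the E-box CACGTG, of which TATAAA and GTAAACA share the letters TAAA. The *Igfbp4* window held TATAAA 28 bases before the start site, and 71.3% of its bases were G or C. The *Igfbp5* window held none of the 3 motifs in these letters, with 56.3% G or C. Of all 32851 promoter windows, 13.6% held TATAAA, 3.65% held GTAAACA and 7.15% held CACGTG. All 10 genes had at least 1 window, 14 in all. Among the other members, *Igfbp6* held TATAAA on the reverse strand, and *Igfbp2* and *Igf2r* held CACGTG.

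**Figure D1:**
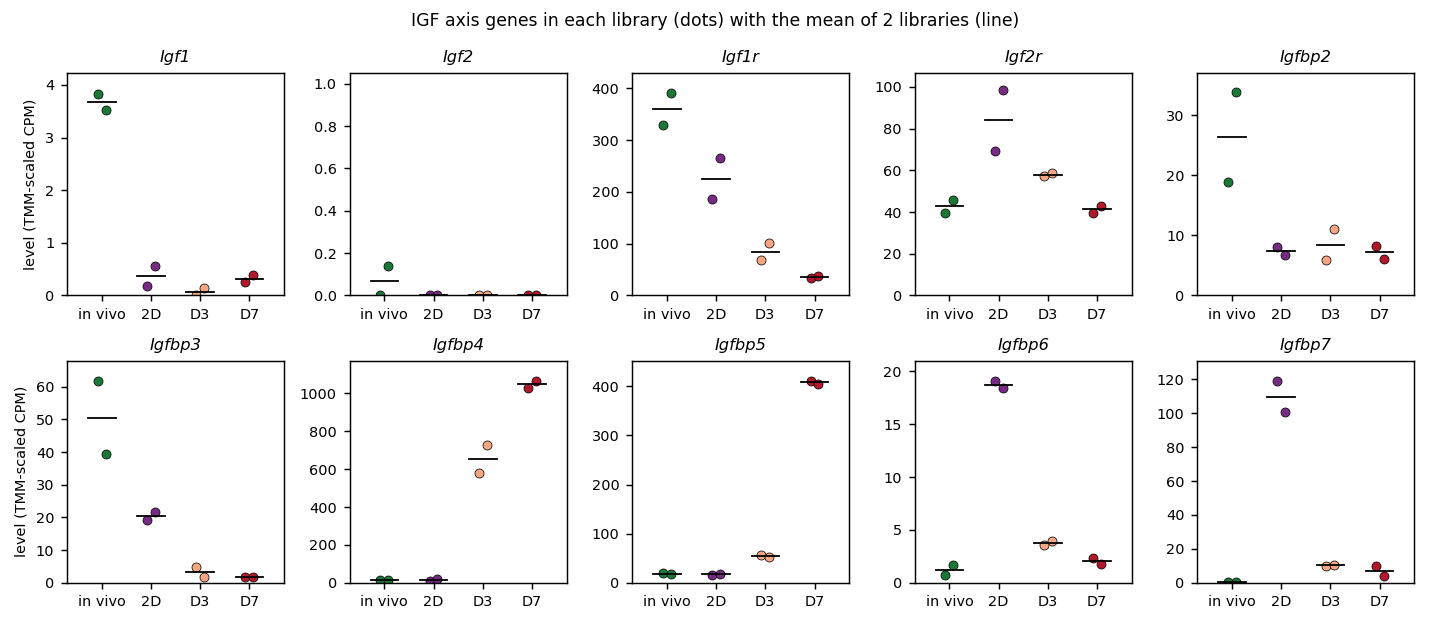
Level of each of the 10 IGF axis genes in each library, in TMM-scaled CPM on a linear axis that starts at 0, with a separate scale per gene; dots are libraries and lines are means of 2 libraries. *Igf1r* stood at 329 and 391 CPM *in vivo* and at 33.9 and 38.4 in D7 organoids, while *Igfbp4* stood at 582.2 or more in every organoid library and at 19.7 or less in every other library.

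Among the ligands, *Igf1* (chr10:87693642-87772904, plus strand, GRCm39) was detected above the floor in the *in vivo* libraries alone. Its counts were 22 and 25 *in vivo*, 1 and 3 in 2D, 0 and 1 in D3 organoids, and 2 and 2 in D7 organoids. Both *in vivo* libraries, at 3.83 and 3.53 CPM, lay above all 6 cultured libraries, which were at or under the floor. *Igf1* did not pass the filter on low counts and was not tested, and its count ratio of *in vivo* TECs to 2D was 9.97, with a 95% interval from 3.64 to 38.1 that covers counting error only. The ratio was 47.9 (8.18 to 1930) to D3 organoids and 12.01 (4.39 to 45.9) to D7 organoids. The thymocyte genes above were also highest *in vivo*, and 7 of 10 myeloid genes were above the floor *in vivo* against 4 in 2D, 1 in D3 and 3 in D7 organoids. *Fcer1g* stood at 1.74 and 2.12 CPM *in vivo* and at most 0.395 in the cultures. *Tyrobp* and *Adgre1* were above the floor in a single *in vivo* library each, at 0 and 1.41 CPM and at 1.39 and 0.141 CPM. *Csf1r* and *C1qa* went the other way, at 0 in both *in vivo* libraries, and at 0.546 and 0.928 and at 0 and 0.743 CPM in 2D. The myeloid sum was 6.44 and 10.9 CPM *in vivo* and between 0.845 and 13.4 in the cultures, where *Lyz2* alone gave 12.2 and 10.3 of the 13.4 and 12.7 CPM in D7 organoids. The part of either cell type in the *Igf1* counts was not tested. In bulk RNA, fewer cells of a type and less RNA per cell cannot be told apart.

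*Igf2* (chr7:142204503-142220694, minus strand) was at or under the floor in every library. It had 1 count in an *in vivo* library and 0 in the other 7. Gm49394 (142204503-142223679) is annotated on the same strand, covers the whole of *Igf2* and had 0 counts in every library. Of the 50-base words in the last 500 bases of *Igf2* transcripts, 451 of 2401 (18.8%) were shared with it. Reads that fall on both genes, or are assigned to several places, could be missing from both. These counts therefore cannot show whether *Igf2* was expressed. *H19*, the non-coding imprinted neighbour of *Igf2*, stood at 549 and 313 CPM *in vivo*, 58.9 and 80.9 in 2D, 7.60 and 10.8 in D3 organoids and 21.6 and 80.3 in D7 organoids. It was lower in D3 organoids than *in vivo* by a log2 fold change of -5.54 ± 0.47 (SE, adjusted p = 1.1e-07).

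Of the receptors, *Igf1r* (chr7:67601518-67883416, plus strand) was highest *in vivo* and lowest in D7 organoids, with 2D-cultured TECs, a separate culture, above D3 organoids. The libraries stood at 329 and 391 CPM *in vivo*, 186 and 265 in 2D, 67.9 and 100.4 in D3 organoids, and 33.9 and 38.4 in D7 organoids, and no group overlapped another. D7 organoids held 9.97-fold less than *in vivo* TECs (log2 fold change -3.32 ± 0.22 SE, adjusted p = 5.4e-09) and 6.24-fold less than 2D-cultured TECs (-2.65 ± 0.22, adjusted p = 3.5e-08). D3 organoids held 4.28-fold less than *in vivo* TECs (-2.09 ± 0.21, adjusted p = 5.6e-07) and 2.68-fold less than 2D-cultured TECs (-1.42 ± 0.20, adjusted p = 3.0e-05). The organoid comparisons share the *in vivo* and the 2D libraries. D7 organoids were also lower than D3 organoids by 2.33-fold (-1.23 ± 0.21, adjusted p = 0.00073). The smallest difference was between *in vivo* TECs and 2D, where *in vivo* TECs were 1.60-fold higher (0.68 ± 0.20, adjusted p = 0.011). It was 0.53 without *in vivo* replicate 2 and 0.44 without 2D replicate 1, and did not pass in either case. *Pgpep1l*, which overlaps the 3′ end of *Igf1r* on the opposite strand, stood at 3.83 and 3.67 CPM *in vivo* and at most 0.280 in the cultures. Its part in the *Igf1r* counts was not tested.

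*Igf2r* (chr17:12901293-12988614, minus strand) had another order, with the highest level in 2D. Its libraries stood at 69.3 and 98.6 CPM in 2D, 57.1 and 58.6 in D3 organoids, 39.5 and 45.8 *in vivo*, and 39.7 and 42.9 in D7 organoids. The last 2 groups overlapped, and their log2 difference was -0.05 ± 0.20 (SE, adjusted p = 0.88). 2D-cultured TECs were 1.97-fold above *in vivo* TECs (-0.97 ± 0.20 for *in vivo* over 2D, adjusted p = 0.00079) and 2.03-fold above D7 organoids (-1.02 ± 0.20, adjusted p = 0.00049). The difference of D3 organoids from 2D (-0.54 ± 0.20, adjusted p = 0.039) did not pass without 2D replicate 2 (-0.26, adjusted p = 0.41), without D3 replicate 1 (adjusted p = 0.13) or without D3 replicate 2 (adjusted p = 0.12). D3 organoids did not pass against *in vivo* TECs (0.44 ± 0.20, adjusted p = 0.12) or against D7 organoids (adjusted p = 0.094). *Airn*, a non-coding RNA from the opposite strand that overlaps part of *Igf2r*, stood at 2.26 and 6.35 CPM *in vivo* and between 13.4 and 16.1 in the organoids. The overlap starts at position 12960198, away from the 3′ end of *Igf2r* at 12901293. Whether strand was used in the counting is not given in the sources used here, so reads within the overlap may not be separated.

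The 6 IGFBP genes divided by where each was most abundant: *Igfbp2* and *Igfbp3* *in vivo*, *Igfbp6* and *Igfbp7* in 2D, and *Igfbp4* and *Igfbp5* in D7 organoids. All 6 encode secreted proteins, and IGFBP3 is the main carrier of IGFs in the circulation. IGFBP7 binds IGFs weakly compared with the others.

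*Igfbp3* (chr11:7156086-7164179, minus strand) was lower in all cultures than *in vivo*, and lowest in organoids. It stood at 61.8 and 39.4 CPM *in vivo*, 19.1 and 21.5 in 2D, 4.90 and 1.68 in D3 organoids, and 1.86 and 1.78 in D7 organoids. The *in vivo*, 2D and organoid libraries did not overlap, while the 2 organoid days did. *Igfbp3* was 27.8-fold lower in D7 organoids than *in vivo* (log2 fold change -4.77 ± 0.41 SE, adjusted p = 1.3e-07) and 11.2-fold lower than in 2D (-3.46 ± 0.42, adjusted p = 4.2e-06). D3 organoids were 15.4-fold below *in vivo* TECs (-3.97 ± 0.38, adjusted p = 3.9e-07) and 6.18-fold below 2D (-2.66 ± 0.39, adjusted p = 3.4e-05). Because the D3 libraries differed, these ran from -4.89 without D3 replicate 1 to -3.29 without D3 replicate 2, and from -3.58 to -2.03, and passed in each case. *In vivo* TECs were 2.49-fold above 2D (1.31 ± 0.32, adjusted p = 0.0030), which did not pass without *in vivo* replicate 1 (0.95, adjusted p = 0.055). The 2 organoid days did not pass against each other (-0.80 ± 0.50, adjusted p = 0.29), with 0.12 without D3 replicate 1 and -1.48 without D3 replicate 2 (adjusted p = 0.0501).

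*Igfbp2* (chr1:72863606-72891634, plus strand) was higher *in vivo* than in any culture. It stood at 18.97 and 33.9 CPM *in vivo*, 8.001 and 6.68 in 2D, 5.91 and 11.04 in D3 organoids, and 8.31 and 6.13 in D7 organoids. The cultures overlapped one another, and none of the 3 differences among them passed (adjusted p from 0.70 to 0.99). *In vivo* TECs exceeded 2D by 3.60-fold (1.85 ± 0.38, adjusted p = 0.00075) and D7 organoids by 3.66-fold (-1.86 ± 0.37 for D7 over *in vivo*, adjusted p = 0.00089). The 3.11-fold difference from D3 organoids (-1.63 ± 0.36, adjusted p = 0.0026) did not pass without *in vivo* replicate 2 (-1.13, adjusted p = 0.059) or without D3 replicate 1 (-1.26, adjusted p = 0.052). The thymocyte genes were highest *in vivo*, as were *Igf1r*, *Igfbp2* and *Igfbp3*. From *in vivo* replicate 1 to 2 the thymocyte sum went from 934 to 423 CPM and *Igfbp3* from 61.8 to 39.4. *Igf1r* went the other way, from 329 to 391 CPM, and so did *Igfbp2*. The part of thymocytes in the levels of these 3 genes was not tested.

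*Igfbp7* (chr5:77493130-77555931, minus strand) showed the widest tested difference among the members. It was at 0.696 and 0.705 CPM *in vivo*, from 4 and 5 counts, 119 and 101 in 2D, 10.1 and 10.8 in D3 organoids, and 9.80 and 3.95 in D7 organoids. All cultured libraries lay above the *in vivo* ones, and both 2D libraries lay far above the organoids. 2D-cultured TECs exceeded *in vivo* TECs 157-fold (-7.25 ± 0.41 for *in vivo* over 2D, adjusted p = 2.9e-10). D3 organoids exceeded them 14.9-fold (3.86 ± 0.47, adjusted p = 6.3e-06) and were 10.5-fold below 2D (-3.39 ± 0.29, adjusted p = 6.9e-08). D7 organoids exceeded *in vivo* TECs 9.81-fold (3.32 ± 0.49, adjusted p = 4.9e-05) and were 16.0-fold below 2D (-3.93 ± 0.30, adjusted p = 1.5e-08). Without D7 replicate 1, which held the higher level, these were 2.46 and -4.79 and still passed. The difference between the organoid days (-0.54 ± 0.32, adjusted p = 0.26) passed without D7 replicate 1 (-1.40, adjusted p = 0.016). *Polr2b*, which overlaps the end of *Igfbp7* on the opposite strand, stood between 74.2 and 97.2 CPM in all 8 libraries. Endothelial cells are known to express *Igfbp7*, and a list of 10 endothelial genes summed to 10.91 and 10.95 CPM in 2D, 6.96 and 7.05 *in vivo* and between 1.35 and 2.94 in organoids, with *Cdh5* and *Tie1* at 0 in every library. *Flt1* alone gave 9.46 and 9.47 CPM of the sum in 2D and at most 1.13 in any other library, while *Pecam1* stood at 3.66 and 5.22 CPM *in vivo* and at most 0.557 in the cultures. Their part in the *Igfbp7* levels was not tested.

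*Igfbp6* (chr15:102052697-102057953, plus strand), whose protein prefers IGF2 over IGF1, had a similar order at lower levels. It stood at 19.1 and 18.4 CPM in 2D, 3.55 and 3.91 in D3 organoids, 2.36 and 1.78 in D7 organoids, and 0.696 and 1.69 *in vivo*, the last from 4 and 12 counts. No group overlapped another, and the gap between 2D and the rest was wide. 2D was 15.7-fold above *in vivo* TECs (-3.91 ± 0.52 for *in vivo* over 2D, adjusted p = 1.0e-05), and -4.72 without *in vivo* replicate 2. It was 5.02-fold above D3 organoids (-2.32 ± 0.46, adjusted p = 0.00066) and 9.06-fold above D7 organoids (-3.15 ± 0.49, adjusted p = 5.6e-05). D7 organoids did not pass against *in vivo* TECs (0.77 ± 0.57, adjusted p = 0.33) or against D3 organoids (adjusted p = 0.28). The difference of D3 organoids from *in vivo* TECs (1.59 ± 0.54, adjusted p = 0.037) did not hold: it failed with limma-voom (adjusted p = 0.10) and without *in vivo* replicate 1 (1.13, adjusted p = 0.18), 2D replicate 1 (adjusted p = 0.071), 2D replicate 2 (adjusted p = 0.068), D3 replicate 1 (adjusted p = 0.080) or D3 replicate 2 (adjusted p = 0.094). Without *in vivo* replicate 2 it was 2.41 and passed (adjusted p = 0.020).

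*Igfbp4* (chr11:98932064-98945218, plus strand) stood at 14.1 and 13.4 CPM *in vivo* and 9.46 and 19.7 in 2D, against 582.2 and 729 in D3 organoids and 1031 and 1065 in D7 organoids. Every organoid library lay far above every other library, and both D7 libraries lay above both D3 libraries. The mean in D7 organoids was 76.2-fold that *in vivo* and 71.9-fold that in 2D, and in D3 organoids 47.7-fold and 45.01-fold. These ratios describe the contrast for which the gene was picked. Against 2D they depended on 2D replicate 2, without which the log2 fold changes were 6.79 for D7 and 6.11 for D3 organoids, compared with 6.17 and 5.49. From D3 to D7 the ratio was 1.60. Between *in vivo* TECs and 2D, a contrast the choice did not use, the groups overlapped and the difference did not pass (-0.08 ± 0.26 SE, adjusted p = 0.83).

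*Igfbp5* (chr1:72897091-72914043, minus strand) lies 5456 bases from *Igfbp2*, with the ends of the 2 genes facing each other. Its libraries stood at 20.0 and 17.3 CPM *in vivo*, 16.5 and 18.2 in 2D, 56.6 and 52.8 in D3 organoids, and 411 and 405 in D7 organoids. The increase came later than that of *Igfbp4*: the mean in D3 organoids was 2.93-fold that *in vivo* and 3.15-fold that in 2D, and the mean in D7 organoids was 21.8-fold and 23.5-fold. D7 organoids held 7.45-fold more than D3 organoids. *In vivo* and 2D libraries overlapped and did not differ beyond their spread (0.10 ± 0.19, adjusted p = 0.70). Its neighbour *Igfbp2* stood at 8.31 and 6.13 CPM in the D7 organoids in which *Igfbp5* was highest.

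Mesenchymal cells are known to express *Igfbp4* and *Igfbp5*, so a list of 14 mesenchymal genes was read beside them. It summed to 57.3 and 62.5 CPM *in vivo*, 44.6 and 38.1 in 2D, 30.8 and 27.5 in D3 organoids and 93.0 and 77.1 in D7 organoids, with 12, 10, 7 and 9 of the 14 genes above the floor in these groups. The sum was highest in D7 organoids and lowest in D3 organoids. Within the list *Dcn* stood at 53.6 and 51.0 CPM in D7 organoids, 18.3 and 23.1 *in vivo*, 7.10 and 3.36 in D3 organoids and 1.45 and 4.64 in 2D. *Lum* was also highest in D7 organoids, at 14.9 and 7.51 CPM against 3.04 and 1.40 in D3 organoids, 0.696 and 3.10 *in vivo*, and 0 and 0.186 in 2D. *Col1a2* was highest in D3 organoids, at 10.5 and 11.7 CPM, and between 4.96 and 9.46 elsewhere. The other collagen genes *Col1a1* and *Col3a1* were highest in 2D, at 12.9 and 9.65 CPM and at 10.2 and 8.72 CPM. In D3 organoids they were at most 1.01 CPM. *Pdgfrb* stood at 8.18 and 4.23 CPM *in vivo* and was at or under the floor in all cultured libraries. *Pdgfra* reached at most 0.868 CPM in organoids, and *Mfap5* was at 0 in every library. PDGFR-α and PDGFR-β were among the antibodies used in the sort of the cells. The part of mesenchymal cells in the *Igfbp4* and *Igfbp5* levels was not tested.

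**Figure D2:**
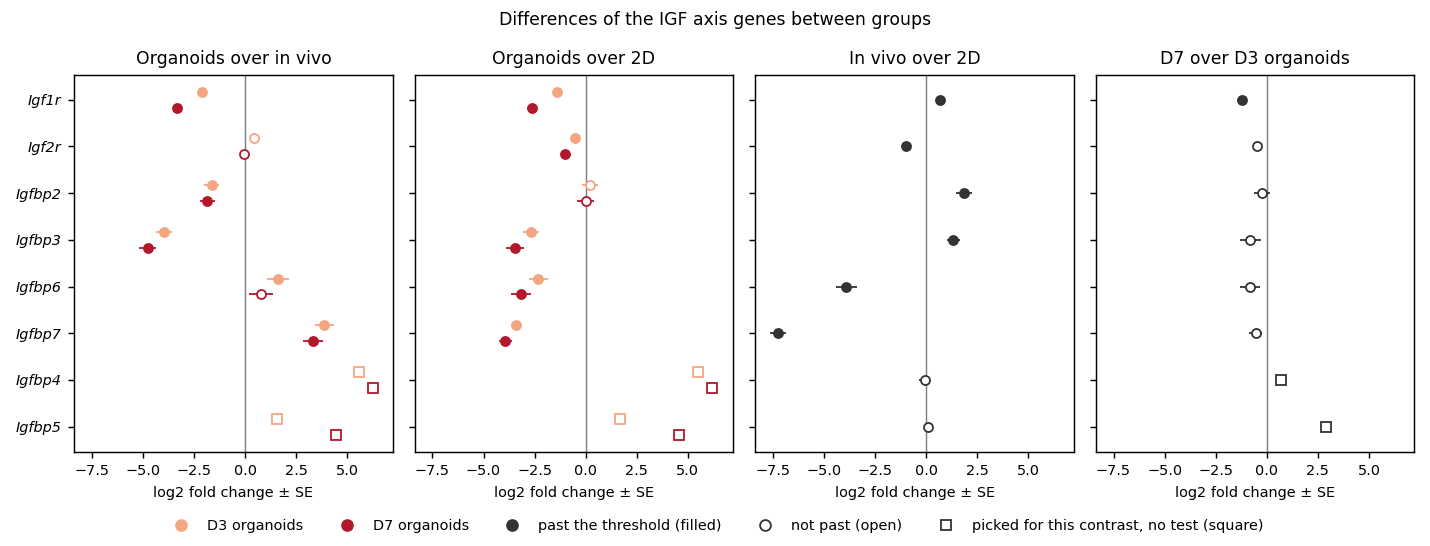
Log2 fold changes of the 8 genes that passed the low-count filter, with standard errors as bars, in the 6 comparisons of groups; filled circles passed an adjusted p of 0.05, open circles did not, and squares are the picked genes, which were not tested in organoid contrasts. In the comparisons of organoids with 2D the 5 filled genes lie below 0 at both days, and *Igfbp7* has the largest tested difference, at -7.25 for *in vivo* over 2D.

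The members were chosen with earlier results of these data known, so their counts beside the share of all genes are a description. Of the 8 tested members in the contrast of *in vivo* TECs with 2D, 6 passed, 3 higher and 3 lower, where 41.6% of all 14504 genes tested passed. For D7 organoids over *in vivo*, 4 of the 6 members not picked passed, *Igfbp7* upward and *Igf1r*, *Igfbp2* and *Igfbp3* downward, against 34.8% of all genes. For D3 organoids over *in vivo*, 5 of 6 passed, the same 4 and *Igfbp6*, which did not hold, against 28.2%. For organoids over 2D, 5 of 6 were lower on both days and the other, *Igfbp2*, did not pass, against 21.1% of all genes lower on D7 (45.5% either way) and 19.1% lower on D3 (38.3% either way). The median log2 fold change of the 6 was -2.90 on D7 and -1.87 on D3, beside 0.10 and 0.03 over all genes. Between D7 and D3 organoids 1 of 6, *Igf1r*, was lower and the other 5 did not pass, against 9.91% of all genes lower and 20.8% either way. Without D3 replicate 1 the count for D3 organoids over *in vivo* was 3, and without D7 replicate 1 that for D7 over D3 was 2.

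**Figure D3:**
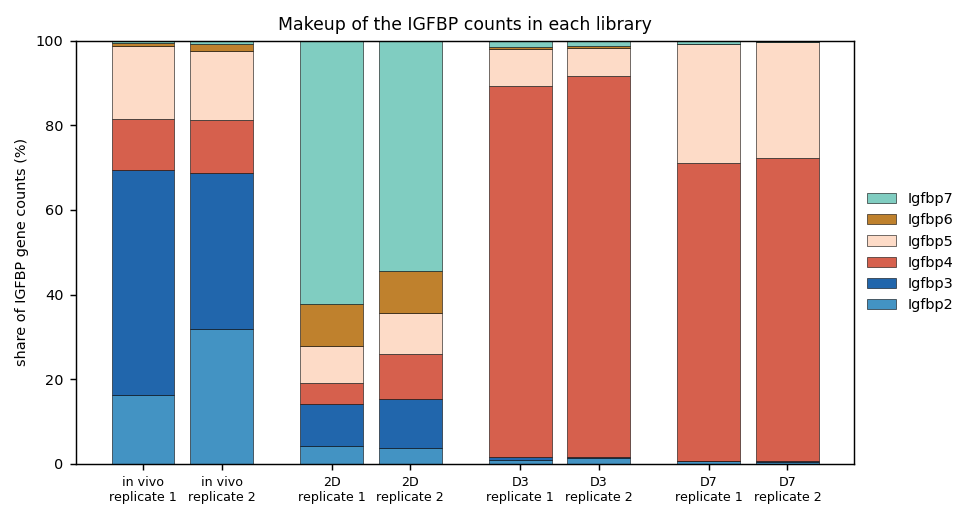
Share of each gene among the counts of all IGFBP genes in each of the 8 libraries, in percent, stacked to 100; the bars pair the 2 replicates of each group. *Igfbp2* and *Igfbp3* filled most of the *in vivo* bars, *Igfbp7* most of the 2D bars and *Igfbp4* most of the organoid bars, with *Igfbp5* second in D7 organoids.

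Because this method reads the 3′ end of each transcript, counts of different genes were set beside each other without division by length. All IGFBP genes summed to 111 ± 6.92 CPM (SD, n = 2) *in vivo*, 188 ± 4.28 in 2D, 736 ± 103 in D3 organoids and 1474 ± 13.1 in D7 organoids. *Igfbp3* made up 45.05% ± 11.4 of the IGFBP counts *in vivo* and *Igfbp2* another 24.1% ± 10.9. In 2D, *Igfbp7* made up 58.3% ± 5.56. In D3 organoids *Igfbp4* made up 88.9% ± 1.64, and in D7 organoids it made up 71.1% ± 1.001 beside 27.7% ± 0.573 for *Igfbp5*. The sums and shares in organoids carry the choice of *Igfbp4* and *Igfbp5* for their rise. The 4 other IGFBP genes together stood at 78.9 ± 4.54 CPM *in vivo*, 156 ± 12.7 in 2D, 26.0 ± 2.05 in D3 organoids and 17.99 ± 6.14 in D7 organoids. Of these 4, *Igfbp2* and *Igfbp3* were lower in organoids than *in vivo* and *Igfbp7* was higher. *Igfbp6* showed no difference from *in vivo* that held. *Igfbp1* had at most 1 count in any library.

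Enzymes that cut IGFBPs, and their inhibitors, also differed between the cultures. *Pappa*, which encodes the protease PAPP-A that cuts IGFBP4, stood at 31.6 and 30.1 CPM in 2D, 3.31 and 2.12 *in vivo*, 0.372 and 1.58 in D7 organoids, and 0 in both D3 libraries. 2D was above *in vivo* TECs (log2 fold change -3.51 ± 0.47 SE for *in vivo* over 2D, adjusted p = 1.6e-05) and D7 organoids (-5.11 ± 0.55, adjusted p = 1.4e-06), the latter from -6.30 to -4.27 without either D7 library. It was at least 66.6-fold higher than D3 organoids (adjusted p = 1.6e-07), taking 3 counts per D3 library as the floor. *In vivo* TECs were at least 5.85-fold higher than D3 organoids (adjusted p = 0.00039), and D7 organoids did not pass against *in vivo* TECs (-1.59 ± 0.62, adjusted p = 0.058).

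*Htra1*, a serine protease gene whose product can also cut IGFBPs, shared the 2D peak, at 22.4 and 26.0 CPM in 2D and at most 1.61 in every other library. It passed against 2D in each of the 3 comparisons (-4.70 ± 0.78 for *in vivo* over 2D, adjusted p = 0.00010). That value ran from -6.97 without *in vivo* replicate 2 to -3.94 without *in vivo* replicate 1, and both passed. *Stc1*, which encodes a stanniocalcin that inhibits PAPP-A, stood at 60.8 and 42.8 CPM in D3 organoids, 40.6 and 33.8 in D7 organoids, 12.9 and 9.73 *in vivo* and 11.6 and 13.2 in 2D. All 4 organoid libraries lay above the others (1.73 ± 0.26 for D7 over *in vivo*, adjusted p = 5.3e-05, and 2.20 ± 0.26 for D3, adjusted p = 3.8e-06). *Stc2*, the other stanniocalcin gene, went the opposite way, from 17.4 and 18.6 CPM *in vivo* and 6.36 and 11.1 in 2D to 1.69 and 0.979 in D3 and 0.744 and 2.77 in D7 organoids (-3.46 ± 0.55 for D7 over *in vivo*, adjusted p = 0.00010). Without D7 replicate 1 this was -2.69 and without D7 replicate 2 it was -4.56.

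**Figure D4:**
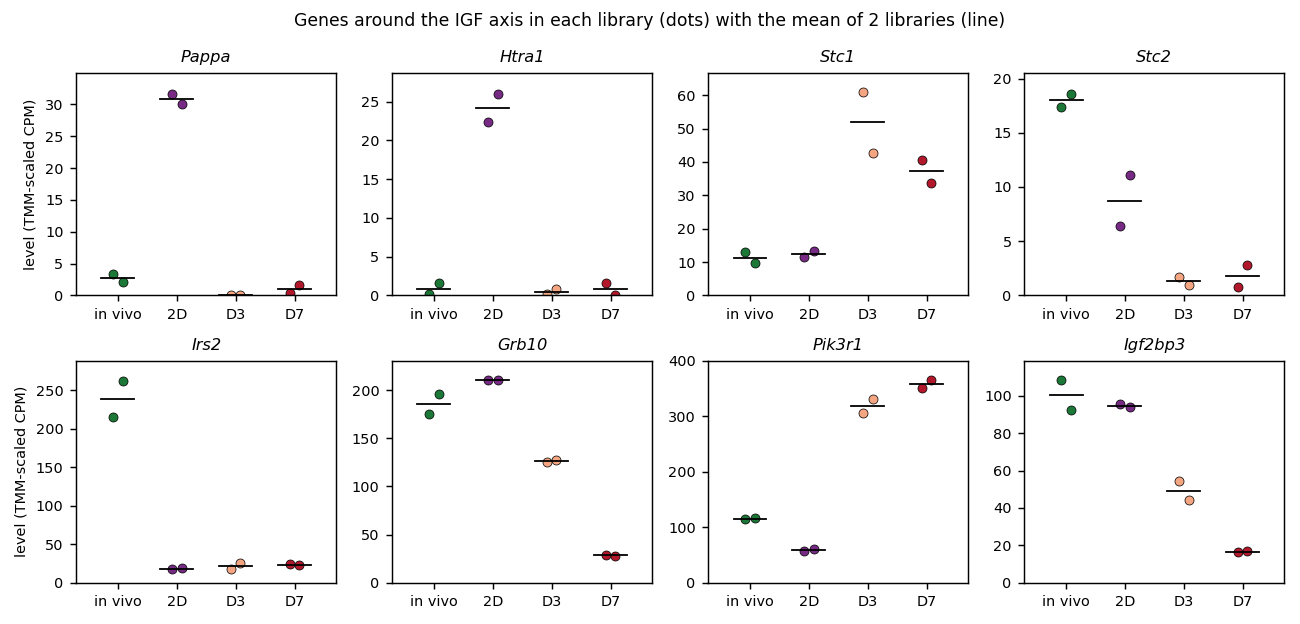
Levels of 8 genes around the IGF axis in each library, in TMM-scaled CPM on linear axes from 0 with a separate scale per gene; dots are libraries and lines are means of 2. *Pappa* and *Htra1* peaked in 2D, *Stc1* and *Pik3r1* were highest in organoids, and *Irs2* stood at 216 and 263 CPM in the *in vivo* libraries and at 25.9 or less in all cultured ones.

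Among receptor adaptors, *Irs2*, which links IGF1R and the insulin receptor to PI3K, fell in every culture. It stood at 216 and 263 CPM *in vivo*, 17.5 and 18.7 in 2D, 17.9 and 25.9 in D3 organoids and 24.3 and 22.5 in D7 organoids. The *in vivo* libraries lay far above all cultures (3.72 ± 0.21 for *in vivo* over 2D, adjusted p = 3.4e-10), and the cultures did not differ from each other beyond their spread (adjusted p from 0.17 to 0.80). *Irs1* was highest in 2D, at 38.0 and 34.2 CPM, and between 12.8 and 20.4 elsewhere. *Grb10*, whose product inhibits signalling from IGF1R, stood at 175 and 196 CPM *in vivo*, 211 in both 2D libraries, 126 and 128 in D3 organoids, and 29.0 and 27.9 in D7 organoids. D7 organoids were lower than each other group (-2.15 ± 0.16 against D3 organoids, adjusted p = 1.8e-07). *Gab1*, a docking protein gene, also fell from D3 to D7 organoids (-1.31 ± 0.22, adjusted p = 0.00049). *Insr*, the insulin receptor gene, stood between 13.4 and 30.3 CPM, with an adjusted p from 0.085 to 0.89 over the 6 comparisons.

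In the PI3K, AKT and mTOR list of 17 genes, *Pik3r1*, the gene of the regulatory PI3K subunit p85, rose in organoids. It stood at 306 and 332 CPM in D3 and 351 and 366 in D7 organoids, against 114 and 116 *in vivo* and 57.5 and 61.3 in 2D (1.64 ± 0.15 for D7 over *in vivo*, adjusted p = 2.0e-07, and 2.59 ± 0.15 over 2D, adjusted p = 6.8e-10). *Pik3r2*, another regulatory subunit gene, stood at 70.2 and 70.6 CPM in D7 organoids and 26.8 and 42.0 *in vivo* (1.03 ± 0.23, adjusted p = 0.0022). *Pik3cb*, a catalytic subunit gene, was highest in 2D, at 30.7 and 36.9 CPM against 1.97 to 8.01 elsewhere. Of the 17 genes, 2 were higher, 3 lower and 12 did not pass for D7 organoids over *in vivo*, where 34.8% of all genes passed.

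*Foxo3* was highest *in vivo*, at 147 and 159 CPM, against 44.9 to 72.0 in the cultures (1.70 ± 0.17 over 2D, adjusted p = 2.9e-07). *Foxo1* stood between 68.9 and 103 CPM in all libraries. Genes listed as FOXO targets moved in both directions. For *in vivo* over 2D, 3 were higher, 3 lower and 3 did not pass of 9, beside 41.6% of all genes that passed. *Sesn1*, a stress-induced inhibitor of mTOR complex 1, stood at 8.18 and 1.86 CPM in 2D and between 32.4 and 42.8 elsewhere (2.90 ± 0.39, adjusted p = 1.0e-05, 4.33 without 2D replicate 1 and 2.20 without 2D replicate 2). *Cited2*, a transcriptional regulator, was by contrast at 315 and 319 CPM in 2D and between 23.98 and 49.5 elsewhere (-3.55 ± 0.19, adjusted p = 1.5e-10). *Fbxo32*, a ubiquitin ligase gene, was at 207 and 194 CPM in 2D, 137 and 151 in D7 organoids, 53.1 and 50.6 *in vivo* and 35.5 and 40.4 in D3 organoids.

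The 3 genes of IGF2 mRNA-binding proteins were lower in D7 organoids than *in vivo* and in 2D in all 6 tests, where 16.8% and 21.1% of all genes were lower. *Igf2bp3* stood at 109 and 92.2 CPM *in vivo*, 95.5 and 94.1 in 2D, 54.2 and 44.2 in D3 organoids and 16.3 and 16.8 in D7 organoids (-2.60 ± 0.20 for D7 over *in vivo*, adjusted p = 2.2e-08). *Igf2bp2* fell less, from 150.2 and 132 CPM *in vivo* to 77.0 and 82.4 in D7 organoids (-0.82 ± 0.16, adjusted p = 0.00052). *Igf2bp1* had few counts in organoids, at 0.124 and 3.56 CPM in D7 against 19.5 and 16.5 *in vivo* (-3.50 ± 0.63, adjusted p = 0.00033). It was -2.33 without D7 replicate 1 and -6.97 without D7 replicate 2.

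In the growth hormone list, which holds the receptor and the JAK2 and STAT5 proteins that induce *Igf1* in liver, *Ghr* was highest in 2D, at 39.3 and 47.7 CPM, and between 5.41 and 22.6 elsewhere. *Stat5a* stood at 27.7 and 12.3 CPM *in vivo* and between 0.743 and 5.24 in cultures (3.29 ± 0.61 over 2D, adjusted p = 0.00033). It ran from 2.60 without *in vivo* replicate 1 to 4.71 without 2D replicate 1. Its difference of organoids from *in vivo* did not pass without *in vivo* replicate 1 (adjusted p = 0.057 for D7 and 0.083 for D3). The thymocyte genes were likewise highest *in vivo*, at 934 CPM in replicate 1 and 423 in replicate 2, and their part in the levels of *Stat5a*, or of *H19*, *Irs2* and *Foxo3*, was not tested. *Socs2*, a STAT5 target that dampens growth hormone signals, was higher in all cultures, between 43.9 and 76.2 CPM, than *in vivo*, at 18.6 and 7.76 (-2.40 ± 0.29 for *in vivo* over 2D, adjusted p = 4.0e-06). Without *in vivo* replicate 1 this was -3.14.

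**Figure D5:**
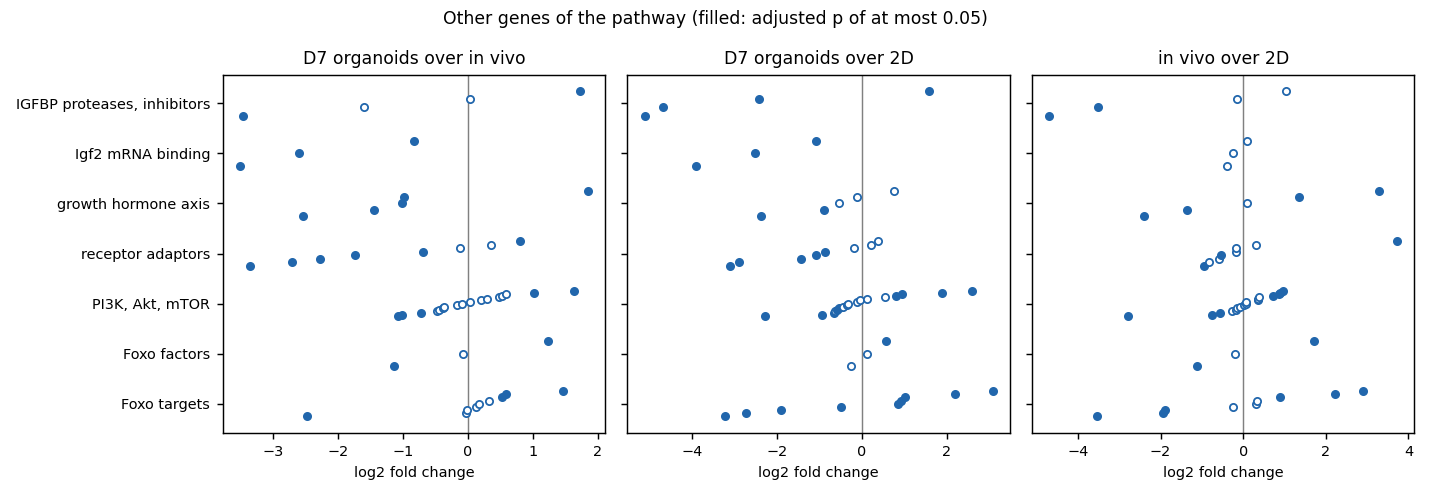
Log2 fold changes of the other pathway genes in 3 comparisons, grouped by list on the vertical axis, each dot a gene; filled dots passed an adjusted p of 0.05 and open dots did not, and the horizontal scales differ between panels. Filled dots lie on both sides of 0 in the PI3K, AKT and mTOR list and among FOXO targets in all 3 panels, and all 3 Igf2 mRNA-binding genes lie below 0 for D7 organoids over *in vivo* and over 2D.

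Of the 59 other genes listed for the pathway, 50 passed the low-count filter. These lists too were chosen with earlier results of these data known. For D7 organoids over 2D, 33 of the 50 passed, 11 higher and 22 lower, beside 45.5% of all genes that passed and 21.1% that were lower, with a median log2 fold change of -0.40 beside 0.10 over all genes. For D7 organoids over *in vivo*, 27 passed, 9 higher and 18 lower, beside 34.8% of all genes (16.8% lower), with medians of -0.11 and 0.01. For D3 organoids over *in vivo*, 26 passed, 10 higher and 16 lower, beside 28.2% (medians -0.29 and -0.01). For D3 organoids over 2D, 28 passed, 8 higher and 20 lower, beside 38.3% (19.1% lower, medians -0.46 and 0.03). For *in vivo* over 2D, 24 passed, 11 higher and 13 lower, beside 41.6% (medians -0.15 and 0.06), and for D7 over D3 organoids 12 passed, 6 each way, beside 20.8% (medians 0.07 and 0.06). The medians were the same with *Pappa* at its bound.

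For the 7 members with a mean of at least 10 CPM, which leaves out *Igf1*, *Igf2* and *Igfbp6*, the genes whose levels followed each most closely over the 8 libraries were named by the Pearson correlation of log2(CPM + 1), among 9018 genes with at least the same mean. The 8 points share the same 4 groups, so these values describe a pattern across groups. *Igfbp4* was followed by *Caln1* (r = 0.997), which stood at a mean of 0.456 CPM *in vivo*, 0.737 in 2D, 59.7 in D3 and 94.6 in D7 organoids, and by *Fmo6* (r = 0.995). *Igfbp5* was followed by *Fam107a* (r = 0.992) and *Aldh2* (r = 0.989), which stood at 111 CPM *in vivo*, 119 in 2D, 251 in D3 and 947 in D7 organoids. *Igfbp7* was followed by *Sertad4* (r = 0.997) and *St14* (r = 0.995), both highest in 2D. *Igf1r* was followed by *Samd5* (r = 0.975) and *Ifi35* (r = 0.973), *Igf2r* by *Lars1* and *Zfp386* (both r = 0.976), *Igfbp3* by *Med11* (r = 0.993) and *Serf1* (r = 0.991), and *Igfbp2* by *Snrnp48* (r = 0.971) and *Cerk* (r = 0.959).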

How the data were processed

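The authors made QuantSeq 3′ libraries, aligned reads to GRCm39 with STAR 2.7.0e and deposited raw counts per Ensembl gene, with no normalization. The annotation release, strand setting and handling of multiply mapped reads are not given in the sources used here. Of 56923 identifiers, 56236 matched GENCODE vM39. The low-count filter asked for 1 CPM or more in 3 or more of the 8 libraries and kept 14504 genes. Counts were tested with edgeR 4.0.16 (TMM, quasi-likelihood F test) in R 4.3.3 on all 8 libraries, for 6 comparisons, with Benjamini-Hochberg adjustment over all genes and a threshold of 0.05. Folds are ratios of mean CPM. An exact permutation test of 2 libraries against 2 cannot go below p = 0.333 (two-sided). DESeq2 1.42.0 and limma 3.58.1 (voom, used by the authors) were alternatives. The procedure was tested on simulated data.

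The members and gene lists were chosen with earlier results of these data known. Of pathway genes, the text took examples from the 4 most abundant genes of each list and the 2 with the largest change in each direction among those that passed. *H19*, *Airn*, *Polr2b* and *Pgpep1l* were chosen as neighbours. TMM factors ran from 0.880 to 1.09. Genes of ribosomal RNA made up 22.7% to 29.4% of counts. Replicates differed by more than sampling noise (chi-square per degree of freedom from 6.86 to 8.47).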

Additional observations from a re-analysis of the deposited data

How the results depend on the processing

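Over 640 recomputed fold changes of tested members, 606 kept their direction and their side of the threshold, 17 kept the direction and no longer passed, 2 passed newly and 15 changed sign. None of the 15 passed, before or after the change. *Igfbp4* for *in vivo* over 2D was 0.10 with no scaling beyond library size, 0.0103 with limma-voom and 0.54 without 2D replicate 2 (-0.52 without 2D replicate 1), and *Igfbp5* was -0.0015 without *in vivo* replicate 1 (up to 0.19 without another library). *Igf2r* for D7 organoids over *in vivo* was 0.0666 without *in vivo* replicate 2 and 0.0059 without D7 replicate 1 (down to -0.15). *Igfbp2* for D7 organoids over 2D was 0.20 with no scaling, 0.0115 with limma-voom, 0.0595 with a filter at a mean of 10 CPM, 0.13 without 2D replicate 1 and 0.18 without D7 replicate 2 (down to -0.26). Without D3 replicate 2 it was -0.29 for D3 organoids over 2D (up to 0.59) and 0.24 for D7 over D3 organoids (down to -0.59). *Igfbp3* for D7 over D3 organoids went from -0.80 to 0.12 without D3 replicate 1 (down to -1.48). The cause of these was not tested.

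With no scaling beyond library size, the median of all genes moved by between 0.18 and 0.26 in the comparisons with 2D, and the share of passing genes that were higher went from 52.2% to 63.1% for *in vivo* over 2D, from 53.7% to 65.2% for D7 organoids over 2D and from 50.3% to 67.2% for D3 organoids over 2D. *Igf2r* for D3 organoids over 2D then no longer passed (-0.27, adjusted p = 0.29). In a fit of the 2 groups compared alone, 2 members passed for D7 over D3 organoids in place of 1, the other being *Igf2r*, and *Igfbp6* for D3 organoids over *in vivo* did not pass (adjusted p = 0.23). With 1 library left out in turn, members past the threshold ran from 3 to 5 for D3 organoids over *in vivo* and from 1 to 2 for D7 over D3 organoids, and pathway genes from 7 to 13 for D7 over D3 organoids. A lone library of a group is then taken to vary like the others. Without the low-count filter *Igf1* could be tested, and *in vivo* over 2D gave 3.18 (adjusted p = 0.060), D7 organoids over *in vivo* -3.44 (adjusted p = 0.046) and D3 organoids over *in vivo* -5.19 (adjusted p = 0.0066), while *Igf2r* for D3 organoids over 2D no longer passed (-0.51, adjusted p = 0.065). Of the recomputed values of named pathway genes that passed, 2440 still passed in the same direction, 172 did not pass and 0 changed sign.

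Replicate numbers are shared between groups, and the main fit did not pair them. The correlations of the replicate differences over 9034 genes were all positive and weak, from 0.0773 to 0.23. Such weak values cannot decide whether the numbers pair the samples. With a replicate block *Igfbp2* for D7 organoids over 2D changed sign to 0.0126, and no other member's direction or call changed. The block raised the count of passing genes in all 6 comparisons. The smallest rise was from 6605 to 6911 for D7 organoids over 2D, and the largest from 3012 to 3587 for D7 over D3 organoids. With 2 libraries a group, differences below the floor of 3 counts could not be read. For *Igf2*, whose counts all lay there, reads shared with the overlapping Gm49394 could also be missing.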
